A study of Mus musculus with 7 samples.

Results

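Tcf3, Tcf4 and Tcf12 encode the E proteins, Id1, Id2 and Id3 encode their inhibitors, and Lyl1 encodes a partner that pairs with E proteins. These 7 genes were chosen by name, and all 7 have a row among the 24341 genes of the deposited table. RNA was sequenced from B-cell precursors (BCPs) of the spleen, which the study defines by BP-1 and other surface antigens, sorted from Eμ-Ret (Emu-Ret) mice. These mice carry an oncogenic Ret fusion gene driven by the immunoglobulin heavy chain enhancer. The labels give the cells of both groups as FACS sorted, while for cell cultures the study describes leukemic spleens that mostly went without enrichment. There were 4 preleukemic samples, taken from healthy young mice, and 3 leukemic samples, taken from older mice that were moribund. Every mouse was a hemizygote for the transgene on a BALB/c background, so both groups share the transgene and neither is a normal control. The labels give neither the age nor the sex of each mouse, and mice of both sexes were used in the study. They do not name the mouse behind each library, so p-values measure the spread between these samples. The comparison of the groups asks which genes changed from preleukemia to overt leukemia.

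E proteins are basic helix-loop-helix transcription factors that bind DNA as dimers at E-box sites. In early B-cell development the products of Tcf3 (E2A) act with Ebf1, Pax5 and Foxo1 to turn on the genes of the pre-B cell receptor and of antigen receptor rearrangement. Id proteins have the helix-loop-helix part but no DNA-binding region, so a dimer of an E protein with an Id protein does not bind DNA. Lyl1 and its relative Tal1 bind DNA as dimers with E proteins and, with Lmo2, Ldb1 and Gata factors, form complexes known from blood stem cells and red cell precursors.

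Values are FPKM, fragments scaled to the length of the transcript and the size of the library, and can be set side by side between genes. Tests were run with limma on log2(FPKM + 1), over the 10541 genes with a summed FPKM of at least 10. Adjusted p-values (Benjamini-Hochberg) refer to all of these genes, and a gene is called changed where the adjusted p was under 0.05. With the added 1, changes of genes at low FPKM come out smaller than they are. The deposited values imply a depth of about 13400000 to 16200000 fragments per sample. Summed over all genes, FPKM was at least 507355 in each leukemic and at most 471447 in each preleukemic sample, so small gaps depend on scaling. Values are listed in the order of the replicate numbers, 1 to 3 for leukemic and 1 to 4 for preleukemic samples.

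Of the 7 genes, 6 passed the filter and Id1 did not. Among the 6, Tcf3 fell and Id2 rose in the leukemic samples, and the other 4 genes did not pass the test. Of all genes tested, 8.47% were called higher and 6.26% lower, 14.7% in either direction. The groups did not overlap for Tcf3 and Id2, as for 32% of all genes tested (14.9% higher and 17.1% lower in leukemia). With 6 genes, a count of 2 says little about the set.

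Libraries differed in markers of other cells. The summed FPKM of 15 B-cell precursor markers was 3715 to 5553 in the leukemic and 6782 to 8480 in the preleukemic samples, and each of the 15 reached 1 FPKM in at least 1 sample. Of these, 4 were called lower and 0 higher by limma (12 and 0 at an unadjusted p under 0.05). Among all genes tested, 6.26% were called lower, and 17.5% were lower at an unadjusted p under 0.05. Enpep, which encodes the BP-1 antigen used in the sort, had 19.1, 102 and 77.2 FPKM in leukemia and 134 to 210 FPKM in the preleukemic samples. The sum over 21 erythroid markers was 5864, 26865 and 13161 FPKM in leukemic replicates 1 to 3. It was 2884 FPKM in preleukemic replicate 1 and 428 to 455 FPKM in the other 3 preleukemic samples. All 20 erythroid markers tested were called higher, as were 9 of 14 macrophage, 7 of 13 neutrophil and 4 of 4 megakaryocyte markers, and 8.47% of all genes. Some of these markers, such as Cd5l, passed the filter only through their leukemic values. Without a filter, 18 of 20 erythroid, 7 of 18 macrophage, 2 of 14 neutrophil and 6 of 10 megakaryocyte markers were called higher. That fit called 10.3% of all genes in either direction. Without preleukemic replicate 2, 3 or 4, 1 of the 20 erythroid markers was called, with 443, 271 and 149 of all genes. Of 11 T, NK and innate lymphoid markers 0 were called by limma (4 at an unadjusted p under 0.05, as were 34% of all genes tested), and of 3 dendritic cell markers 0 (0 unadjusted). The markers with the highest FPKM were Cd79a and Igll1 (B-cell precursor), Hbb-b1 and Hba-a1 (erythroid), Lyz2 and C1qa (macrophage), S100a8 and S100a9 (neutrophil), Tcf7 and Gzma (T, NK and innate lymphoid), Irf8 and Bst2 (dendritic) and Ppbp and Pf4 (megakaryocyte). In these bulk samples, fewer cells of a type and less RNA per cell cannot be told apart.

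**Figure D1:**
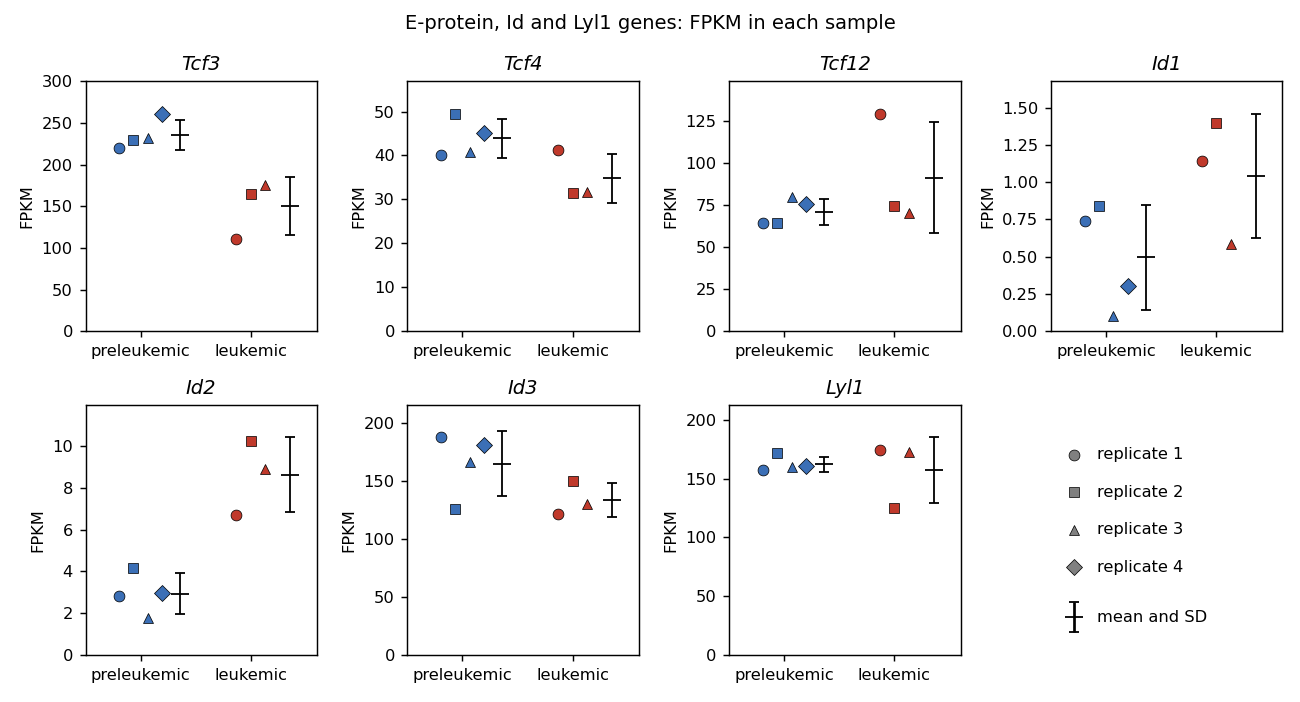
FPKM (vertical axes, from 0 and different for each gene) of the 7 genes in each sample, with preleukemic samples in blue, leukemic samples in red, a marker shape for each replicate number, and the group mean with SD beside the points. The 3 leukemic samples lay below all 4 preleukemic samples for Tcf3 (highest 176 against lowest 219 FPKM) and above them for Id2 (lowest 6.72 against highest 4.16 FPKM), while the groups overlapped for the other genes.

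Tcf3 (RefSeq gene 21423) is on the minus strand of chromosome 10, with its locus in the deposited table at 80409165 to 80433653 (mm10), and no other row of the table overlaps it. It had 110, 164 and 176 FPKM in leukemia and 219, 230, 231 and 261 FPKM in the preleukemic samples. Leukemic replicate 1 was the lowest of the 7 samples, and the highest leukemic value stayed below the lowest preleukemic one. The group means were 150 ± 35.1 (SD, n = 3) and 236 ± 18.0 FPKM (SD, n = 4), a fall of 36.2% in the mean. The log2 fold change was -0.67 (95% interval -1.05 to -0.29, limma adjusted p = 0.0369). Over all 35 assignments of the labels, a two-sided exact permutation test gave p = 0.0286, the smallest it can give.

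The direction of the Tcf3 difference held with each sample left out, from -0.80 to -0.46, but the call rested on the number of preleukemic samples. When preleukemic replicates 1 to 4 were left out one by one, the limma adjusted p was 0.067, 0.0836, 0.0923 and 0.111, and without a filter on low values it was 0.0542. Without leukemic replicate 1, whose Tcf3 was lowest, the log2 fold change was -0.46 and still passed (limma adjusted p = 0.0232). The sum of the B-cell precursor markers moved with Tcf3, as it was lower in leukemia and lowest in leukemic replicate 1, and the erythroid sum was higher in leukemia. Within leukemia, replicate 1 had the lowest erythroid sum too. Their part in the fall was not tested.

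Id2 (RefSeq gene 15902) is on the minus strand of chromosome 12, at 25093799 to 25096092. It had 6.72, 10.3 and 8.91 FPKM in leukemia and 2.84, 4.16, 1.76 and 2.95 FPKM in the preleukemic samples. Every leukemic value was above every preleukemic value, and the spread within each group was smaller than the gap between the means. The means were 8.63 ± 1.79 (SD, n = 3) and 2.93 ± 0.979 FPKM (SD, n = 4), a ratio of 2.95. The log2 fold change on the log2(FPKM + 1) scale was 1.31 (95% interval 0.77 to 1.85, limma adjusted p = 0.0169), and the exact permutation test gave p = 0.0286. At the depth of these libraries the Id2 values stand for roughly 43.4 fragments in preleukemic replicate 3 and 278 in leukemic replicate 2, so counting error is small beside the difference.

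The rise of Id2 passed with 6 of the 7 samples left out in turn, but not without preleukemic replicate 4 (limma adjusted p = 0.0623, log2 fold change 1.32). Id2 is expressed in natural killer cells, macrophages and dendritic cells. The summed macrophage markers were 178 to 439 FPKM in the leukemic and 42.4 to 96.2 FPKM in the preleukemic samples. The summed neutrophil markers were 1457 to 1812 and 152 to 884 FPKM. Both sums moved with Id2 between the groups, and their part in its rise was not tested. The sums over T, NK and innate lymphoid markers overlapped, at 20.9 to 104 FPKM in the leukemic and 25.4 to 47.2 FPKM in the preleukemic samples. Within that sum, Nkg7 moved with Id2 between the groups (3.78 to 14.3 against 0.959 to 2.91 FPKM). Gzmb, which did not pass the filter, did too (1.603 to 4.66 against 0.0564 to 0.223 FPKM). Cd4 was also higher in every leukemic sample, while Klrb1c was lower in each (0.727 to 3.29 against 4.39 to 7.02 FPKM). The groups overlapped for the other genes of the sum. The dendritic markers summed to 116 to 242 and 104 to 134 FPKM, and 7 of these 15 markers, among them Siglech, Xcr1 and Clec9a, stayed under 1 FPKM in every sample. In the limma fit without a filter on low values, 5 of the 15 were called higher and 0 lower, and 14 had a log2 fold change above 0. Of all genes in that fit, 10.3% were called in either direction. Leukemic replicate 2, with the highest Id2, also had the highest erythroid, macrophage and T, NK and innate lymphoid sums. Its neutrophil and dendritic sums (1457 and 116 FPKM) were the lowest of the leukemic samples. In the T, NK and innate lymphoid sum it had 104 FPKM against 20.9 and 46.2 FPKM in leukemic replicates 1 and 3. Gzma, a granzyme of cytotoxic T and NK cells, had 32.1 FPKM in leukemic replicate 2 and 1.33 and 6.88 FPKM in leukemic replicates 1 and 3. The part of these cells in the Id2 values was not tested.

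The promoters of Tcf3 and Id2 are shown because these are the genes that passed the test, one lower and one higher, and that of Id3 because it is the Id gene with the highest level. Each run is the 250 bases before the transcription start, 5′ to 3′ on the gene's own strand, from RefSeq on GRCm38.p6, with any E-box (CANNTG, which reads the same on both strands) in capitals. They lie at chr10:80433636-80433885 (minus strand), chr12:25096093-25096342 (minus strand) and chr4:136143572-136143821 (plus strand).
Tcf3: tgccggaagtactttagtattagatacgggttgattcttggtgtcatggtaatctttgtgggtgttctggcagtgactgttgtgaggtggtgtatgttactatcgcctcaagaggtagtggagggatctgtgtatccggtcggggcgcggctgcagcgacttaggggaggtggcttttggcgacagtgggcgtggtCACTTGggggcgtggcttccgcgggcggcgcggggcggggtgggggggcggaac
Id2: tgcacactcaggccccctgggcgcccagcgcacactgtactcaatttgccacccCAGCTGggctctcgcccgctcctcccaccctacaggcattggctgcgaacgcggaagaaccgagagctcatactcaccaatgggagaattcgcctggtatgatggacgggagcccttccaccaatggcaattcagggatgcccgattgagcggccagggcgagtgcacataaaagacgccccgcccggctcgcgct
Id3: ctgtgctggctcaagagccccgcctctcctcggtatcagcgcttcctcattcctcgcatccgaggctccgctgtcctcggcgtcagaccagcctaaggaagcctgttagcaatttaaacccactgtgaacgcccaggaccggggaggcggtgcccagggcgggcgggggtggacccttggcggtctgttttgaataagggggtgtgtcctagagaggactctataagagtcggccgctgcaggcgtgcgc
The Tcf3 window held 1 E-box, CACTTG, whose first base lies 54 bases before the start, and the Id2 window held 1, CAGCTG, 196 bases before the start. The Id3 window held none. Of 32851 promoter windows of the same length, 66.2% held a CANNTG, 11.6% held CACTTG or its reverse complement CAAGTG, and 13% held CAGCTG. The motif is thus common at this length, and a match describes the letters only.

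Tcf12 (HEB), on the minus strand of chromosome 9 at 71844252 to 72111819, was the E-protein gene whose leukemic values spread most for their mean. The row of the microRNA gene Mir378a lies within its span. Its leukemic values were 129, 74.4 and 70.4 FPKM, and its preleukemic values were 64.5, 64.0, 79.6 and 75.5 FPKM. Leukemic replicate 1 stood alone, and the other 2 leukemic samples lay within the preleukemic range. The means were 91.4 ± 32.9 and 70.9 ± 7.84 FPKM (SD, n = 3 and 4), and the difference did not pass (log2 fold change 0.31, 95% interval -0.19 to 0.81, limma adjusted p = 0.333). Without leukemic replicate 1 the difference was 0.03.

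The level of each gene's chromosome was set beside it, as the median deviation of its genes from the preleukemic mean relative to all genes. For chromosome 9 (495 genes) this was 0.33, 0.28 and 0.10 on the log2 scale in leukemic replicates 1 to 3, and between -0.05 and 0.09 in the preleukemic samples. Preleukemic replicate 3, with the highest chromosome 9 value of its group, also had the highest preleukemic Tcf12. Leukemic replicate 2 had a raised chromosome 9 level but a Tcf12 value within the preleukemic range. With the chromosome level removed, the Tcf12 difference was 0.08 (limma adjusted p = 0.782). The chromosomes of the other 6 genes differed by -0.05 to -0.03 between the group means, Id2's chromosome 12 included (-0.04). With their level removed, Tcf3 (-0.63, limma adjusted p = 0.0493) and Id2 (1.36, limma adjusted p = 0.0186) kept their calls.

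Tcf4 (E2-2), on the plus strand of chromosome 18 at 69344492 to 69687967, is the E protein best known from plasmacytoid dendritic cells. It had 41.2, 31.4 and 31.7 FPKM in leukemia and 40.1, 49.5, 40.8 and 45.2 FPKM in the preleukemic samples. Leukemic replicate 1 lay within the preleukemic range and the other 2 leukemic samples lay below it. The difference did not pass (log2 fold change -0.33, 95% interval -0.63 to -0.04, limma adjusted p = 0.112). Leukemic replicate 1 decided this call, since without it the log2 fold change was -0.46 and passed (limma adjusted p = 0.0355).

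**Figure D2:**
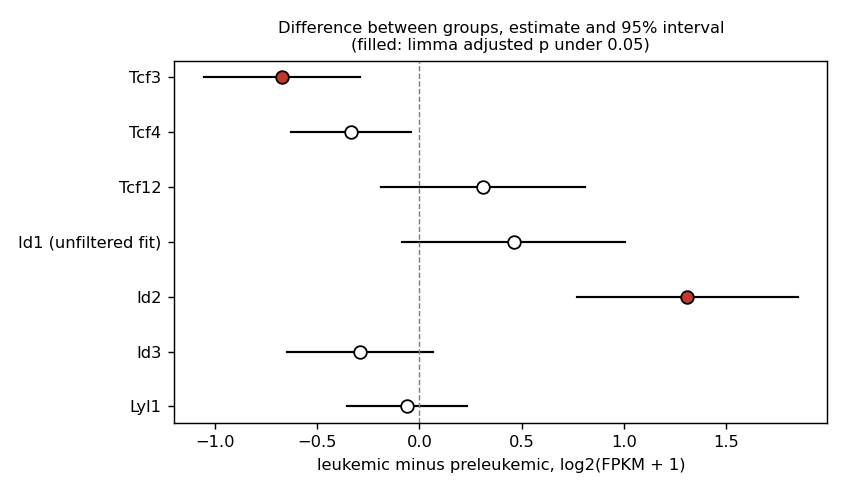
Difference between leukemic and preleukemic samples on the log2(FPKM + 1) scale (horizontal axis) for each gene, with the limma estimate as a point and its 95% interval, unadjusted, as a line. Filled points mark Tcf3 (-0.67) and Id2 (1.31), which had an adjusted p under 0.05, and Id1 comes from the fit without a filter on low values.

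By share, Tcf3 gave most of the E-protein RNA in 6 of the 7 samples. Its share of the summed Tcf3, Tcf4 and Tcf12 FPKM was 65.8% to 68.4% in the preleukemic samples. In leukemic replicates 1 to 3 it was 39.3%, 60.8% and 63.3%. In leukemic replicate 1, Tcf12 gave the largest share, 46.1%, against 27.5% and 25.3% in the other leukemic samples and 18.6% to 22.6% in the preleukemic samples. The shares of Tcf3 and of Tcf12 did not overlap between the groups, while that of Tcf4 did, at 11.4% to 14.7% and 11.6% to 14.4%. The ratio of Tcf3 to Tcf12 was 0.853, 2.21 and 2.503 in the leukemic samples and 2.91 to 3.59 in the preleukemic samples.

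The total of the 3 E-protein genes varied less within leukemia than Tcf3 or Tcf12 did (SD of 5.61 against 35.1 and 32.9 FPKM). Within the preleukemic samples the total varied more than either gene (SD of 24.05 against 18.0 and 7.84 FPKM). It was 281, 270.1 and 278 FPKM in leukemia and 324, 344, 352 and 382 FPKM in the preleukemic samples, with no overlap. The lower Tcf3 of leukemic replicate 1 thus stood beside a higher Tcf12 in the same library. These sums are given as a description, with no test.

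**Figure D3:**
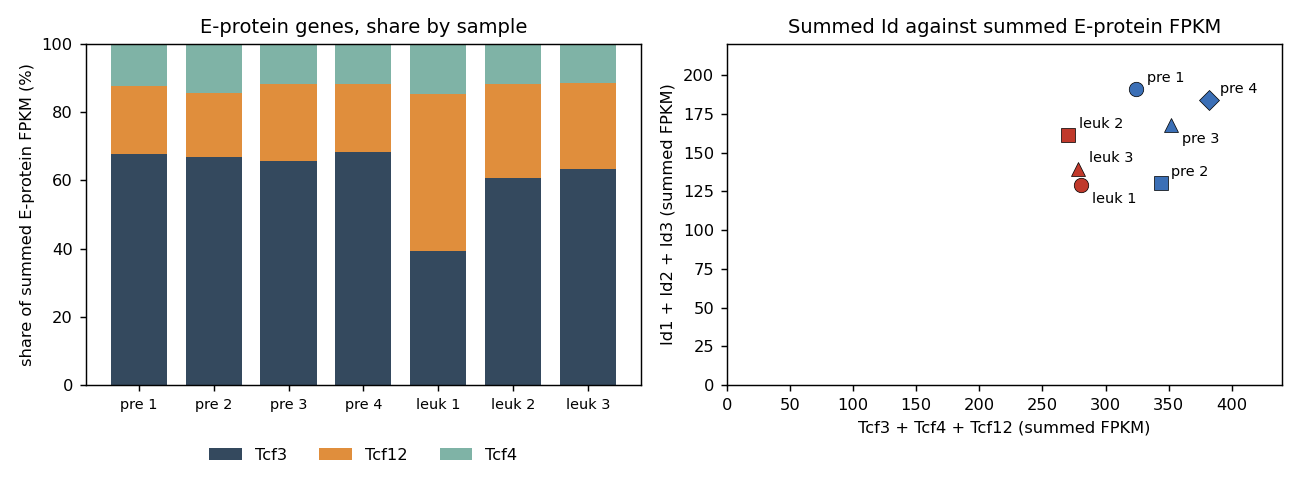
Left, the share of summed E-protein FPKM (percent) taken by Tcf3, Tcf12 and Tcf4 in each preleukemic (pre) and leukemic (leuk) sample. Right, summed Id FPKM against summed E-protein FPKM for each sample (blue preleukemic, red leukemic, axes from 0), where the leukemic samples lie at 270.1 to 281 on the horizontal axis and the preleukemic samples at 324 to 382, while the vertical ranges overlap.

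Id3 (RefSeq gene 15903), on the plus strand of chromosome 4 at 136143822 to 136145392, was by far the highest of the Id genes. It had 121, 149 and 130 FPKM in leukemia and 187, 125, 166 and 181 FPKM in the preleukemic samples. Preleukemic replicate 2 was the low sample of its group and lay among the leukemic values. The difference did not pass (log2 fold change -0.29, 95% interval -0.65 to 0.06, limma adjusted p = 0.217). Without preleukemic replicate 2 it was -0.42 and still did not pass (limma adjusted p = 0.0705).

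Id1 (RefSeq gene 15901), on the plus strand of chromosome 2 at 152736251 to 152737410, was near the limit of detection. It had 1.14, 1.40 and 0.586 FPKM in leukemia and 0.738, 0.841, 0.0997 and 0.301 FPKM in the preleukemic samples, and the groups overlapped. The lowest value stands for about 1.33 fragments and the highest for about 20.6, so counting error alone is large. In the fit without a filter on low values (16676 genes, of which 10.3% were called), the log2 fold change was 0.46 (95% interval -0.08 to 1.01, limma adjusted p = 0.232). Id4, the remaining Id gene, was listed at the floor of 0.01 FPKM in 5 samples and at 0.0882 and 0.0939 FPKM in leukemic replicate 2 and preleukemic replicate 2.

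Id3 made up 92.8% to 93.9% of the summed Id1, Id2 and Id3 FPKM in leukemia and 96.2% to 98.9% in the preleukemic samples. The share of Id2 was 5.20% to 6.40% and 1.05% to 3.19%. Neither share overlapped between the groups. With Id1 at no more than 0.885% of the sum, the shares of Id2 and Id3 mirror each other, and the Id3 level itself overlapped. The Id sum was 129, 161 and 139 FPKM in leukemic and 191, 130.4, 168 and 184 FPKM in preleukemic replicates in order, so it followed Id3 and the groups overlapped.

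Divided by the summed E-protein FPKM, the Id sum gave 0.460, 0.597 and 0.5002 in the leukemic samples and 0.589, 0.379, 0.477 and 0.481 in the preleukemic samples. The groups overlapped, with means of 0.519 ± 0.0702 and 0.482 ± 0.0858 (SD, n = 3 and 4). With Id2 at no more than 6.40% of the Id sum, its higher level did not separate the groups in total Id RNA per E-protein RNA. RNA levels do not give the amounts of protein.

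Lyl1 (RefSeq gene 17095) had 174, 125 and 173 FPKM in leukemia and 157, 172, 160 and 161 FPKM in the preleukemic samples. Leukemic replicate 2 was the low sample. On the deposited scale, the other 2 leukemic samples lay just above all 4 preleukemic samples (172.7 and 174.1 against at most 171.6 FPKM). The log2 fold change was -0.06 (95% interval -0.35 to 0.23, limma adjusted p = 0.753), and without leukemic replicate 2 it was 0.09 (limma adjusted p = 0.413). The table lists Lyl1 at 84701457 to 84800338 on chromosome 8, the same span as Nfix. In GENCODE M21 the gene itself ends at 84704715 on the plus strand and lies within Nfix, which is on the minus strand. The library kit keeps strand, but whether the counting used it is not given in the sources used here. Nfix was much lower, at 1.13 to 7.68 FPKM, and Lyl1 was 22.7 to 142 times as high as Nfix in each sample.

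In order of mean FPKM, the preleukemic samples had Tcf3 (236), Id3 (165), Lyl1 (162), Tcf12 (70.9), Tcf4 (43.9), Id2 (2.93) and Id1 (0.495). Only the ranges of the neighbors Id3 and Lyl1 overlapped there. In the leukemic samples Lyl1 (157) came first, before Tcf3 (150.2), Id3 (133), Tcf12 (91.4), Tcf4 (34.8), Id2 (8.63) and Id1 (1.04). The ranges of Lyl1, Tcf3, Id3 and Tcf12 overlapped from each gene to the next, so neighbors among these 4 have no clear order in leukemia. Lyl1 was above Tcf12 within each leukemic sample (174, 125 and 173 against 129, 74.4 and 70.4 FPKM). Tcf3 was above Lyl1 in all 4 preleukemic samples (1.34 to 1.62 times) and at 0.633, 1.31 and 1.02 times its level in leukemic replicates 1 to 3.

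A list of 28 genes known as targets of E proteins in B-cell precursors was examined next. All 28 were tested, of which 6 (21.4%) fell and 0 rose, against 6.26% of all genes called lower. At an unadjusted p under 0.05 in the limma fit, 18 were lower and 0 higher, where 17.5% of all genes were lower and 16.5% higher. Their median log2 fold change was -0.65, beside -0.02 for all genes tested, and 26 of the 28 were below 0. Of the 28 genes, 13 are also among the 15 B-cell precursor markers, so the list and the marker sum above are not independent, and the part of other cells in the fall was not tested. The number that fell depended on the processing, with 15 under quantile normalization and 10 under upper quartile scaling. It was 3 without preleukemic replicate 2, 1 without replicate 3 or 4, and 11 without leukemic replicate 2. Over all genes, in either direction, 1553 were called in the main fit, 1661 under quantile normalization and 1697 under upper quartile scaling. Without preleukemic replicates 2, 3 and 4 these calls were 443, 271 and 149, and without leukemic replicate 2 they were 1620.

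The 6 genes that fell were Vpreb1, Igll1, Foxo1, Erg, Pax5 and Ebf1. Foxo1, a factor that acts with E2A on the recombination genes, had 57.2, 104 and 98.6 FPKM in leukemia and 144, 156, 179 and 176 FPKM in the preleukemic samples. Like Tcf3, it was lowest in leukemic replicate 1, and its groups did not overlap (log2 fold change of -0.95 with a standard error of 0.21, limma adjusted p = 0.0277). Erg, an ETS factor of early lymphoid and stem cells, had 87.9, 89.0 and 61.7 FPKM in leukemic and 133, 179, 126 and 137 FPKM in preleukemic samples (log2 fold change of -0.85 with a standard error of 0.17, limma adjusted p = 0.0225). It was lowest in leukemic replicate 3, not in replicate 1.

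Igll1 and Vpreb1, which encode the surrogate light chain, also had their lowest value in leukemic replicate 3. Igll1 had 605, 934 and 373 FPKM in leukemic replicates 1 to 3 against 1377 to 1631 FPKM in preleukemia (log2 fold change -1.32, limma adjusted p = 0.0244). Vpreb1 had 399, 913 and 364 FPKM against 1313 to 1625 FPKM (log2 fold change -1.50, limma adjusted p = 0.0226), but it has a near copy, Vpreb2, and how reads shared by both were counted is not given in the sources used here. Ebf1 and Pax5 fell by 0.70 and 0.78 on the log2 scale (limma adjusted p = 0.00952 and 0.0134). The sample with the least Tcf3 was thus not the sample with the least of each target.

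Vpreb3 and Cd79a had the highest levels of the list beside Igll1. Vpreb3 had 732, 1424 and 1245 FPKM in leukemic and 1676 to 2189 FPKM in preleukemic samples, and Cd79a, which carries signals from the B-cell receptor, had 869, 1090 and 1194 against 1259 to 1626 FPKM. Neither passed (limma adjusted p = 0.0555 and 0.0567).

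**Figure D4:**
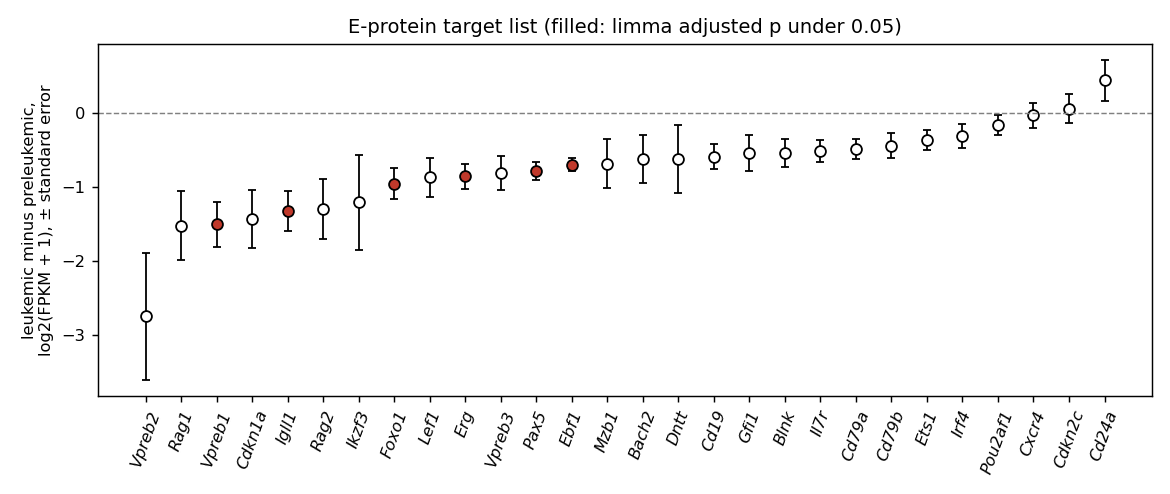
Difference between leukemic and preleukemic samples on the log2(FPKM + 1) scale, with its standard error, for the 28 genes of the E-protein target list, ordered by size. Of the 28 points, 26 lie below 0, and the 6 filled ones (Vpreb1, Igll1, Foxo1, Erg, Pax5 and Ebf1) had an adjusted p under 0.05.

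Partners and cofactors of E proteins formed a list of 25 genes, of which 15 were tested. Of these, 3 rose (20%) and 1 fell (6.67%), against 8.47% and 6.26% of all genes. The median log2 fold change was 0.28. The genes that rose were Gata1, Tal1 and Lmo2, members of the complex in which Lyl1 and Tal1 act. Gata1 passed the filter only through its leukemic values, and 10 of the 25 genes did not pass it. Without a filter, 4 of the 25 were called higher and 1 lower, where 10.3% of all genes were called in either direction.

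Lmo2 had 89.5, 87.0 and 95.8 FPKM in leukemia and 29.1, 23.9, 20.2 and 18.1 FPKM in the preleukemic samples. Its groups lay far apart and its leukemic values lay close together (log2 fold change 1.97 with a standard error of 0.16, limma adjusted p = 0.00426). Tal1 had 18.3, 46.9 and 30.1 FPKM in leukemic samples, 7.81 FPKM in preleukemic replicate 1 and 0.493 to 0.991 FPKM in the other 3 (log2 fold change 3.55, limma adjusted p = 0.0172). Gata1, a red cell factor that is also in the erythroid marker list, had 14.1, 40.0 and 22.3 FPKM in leukemic samples, 7.09 FPKM in preleukemic replicate 1 and 0.0863 to 0.524 FPKM in the other 3 (log2 fold change 3.55, limma adjusted p = 0.0224). The erythroid marker sum given above moved with all 3 genes between the groups. Over the 4 preleukemic samples Lmo2, Tal1 and Gata1 each stood in the same order as that sum, with replicate 1 highest. Over the 3 leukemic samples Tal1 and Gata1 did too, while the Lmo2 values were nearly equal and stood in another order. The part of red cell precursors in these values was not tested.

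The cofactor that fell was Cbfa2t3, a corepressor of the same complexes, from 20.2 ± 4.07 (SD, n = 4) to 9.95 ± 2.94 FPKM (SD, n = 3) (log2 fold change -0.98, limma adjusted p = 0.0287). Ldb1, the adaptor of the complex, had 107 ± 18.0 FPKM in leukemic and 109 ± 7.71 FPKM in preleukemic samples (limma adjusted p = 0.854). Usp4 had 66.9 ± 4.91 and 55.0 ± 3.50 FPKM (limma adjusted p = 0.0697). Without preleukemic replicate 2, 3 or 4 the limma calls of the list were 1 higher and 0 lower, with 443, 271 and 149 of all genes called. Without leukemic replicate 3 they were 5 higher and 3 lower, with 1402 of all genes called.

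Signals that induce Id genes, and the enzymes that turn Id proteins over, formed a list of 20 genes, of which 16 were tested. Of these, 1 rose and 1 fell (6.25% each), no more than the 8.47% and 6.26% of all genes, and the median log2 fold change was -0.06. Egr1, an early response factor that induces Id3 downstream of antigen receptors in lymphocyte precursors, fell from 29.9, 32.8, 28.1 and 19.5 FPKM in the preleukemic samples to 7.32, 12.3 and 15.7 FPKM in leukemic replicates 1 to 3. Its groups did not overlap (log2 fold change -1.20 with a standard error of 0.26, limma adjusted p = 0.0278). Fzr1, an activator of the anaphase-promoting complex, rose from 37.0 ± 5.45 to 62.3 ± 14.5 FPKM (log2 fold change 0.73, limma adjusted p = 0.0356). Egr1 was no longer called without any 1 of the preleukemic samples, and Fzr1 without preleukemic replicate 2, 3 or 4. Without leukemic replicate 1 or 2, 2 genes were called lower, with 1366 and 1620 of all genes called in either direction. Tgfb1 (limma adjusted p = 0.191), Cdc20 (0.406) and Usp1 (0.313) had the highest levels of the list and did not pass.

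For each of the 7 genes, the genes with the most alike profile over the 7 samples were found among 10518 others, by the root-mean-square difference of the mean-centered log2(FPKM + 1). For Tcf3 these were Clk4 (0.06) and Dopey2 (0.06), and for Tcf4 Frmd6 (0.08). For Tcf12 they were Bbs9 (0.08) and Prps2 (0.09), for Id1 Insig1 (0.11) and St3gal2 (0.13), and for Id2 Ms4a3 (0.17) and Ctsw (0.18). For Id3 they were Cpt2 (0.08) and Ddt (0.08), and for Lyl1 Lmtk2 (0.03) and Setd1a (0.04). All profiles come from the same 7 libraries and share their depth. Id2 had the least close neighbors, both of them at lower FPKM, and Clk4 repeated the order of the Tcf3 values in leukemia, with 20.3, 30.0 and 32.5 FPKM in leukemic replicates 1 to 3.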

How the data were processed

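Stranded mRNA libraries of 3 leukemic and 4 preleukemic BCP samples were sequenced by the authors. The authors deposited FPKM values for 24341 genes, with no value below 0.01. The submitters' processing notes, written by the authors, name STAR 2.5.0b, Cufflinks 2.2.1, bedtools 2.17.0, Bowtie and DESeq2 with the mm10 build, without roles. The annotation is not given in the sources used here. In the study's methods, the authors describe DESeq2 on counts. FPKM is not a count, so limma 3.58.1 (R 4.3.3; lmFit, eBayes with trend, no covariates) was fitted on log2(FPKM + 1), as deposited, with the study's filter of 10 taken over FPKM sums and its threshold of 0.05. In limma fits p-values were adjusted over all genes tested. The fit was tested on simulated data first.

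Columns were matched to samples by the numbers in the labels. No pair of samples shared more than 1 equal value above 0.01. Replicate numbers mark no shared source in the labels, and did not pair the samples. The 7 genes and all lists were chosen with earlier results of these data known. The lists cover E-protein targets, partners and cofactors, inducers and turnover of Id genes, and markers of 7 cell types. Named from them were the called genes (at most 6 in each direction) and those with the highest mean FPKM (3 per list) and, from each marker list, the 2 with the highest mean FPKM. For each of the 7 genes the 2 most alike profiles were added, of which 1, for Tcf4, is not reported here. Enpep, Nfix, Cd5l, Nkg7, Gzmb, Cd4, Klrb1c and the low dendritic markers were named after their values were seen.

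Depth was read from 1567 genes with a single transcript over 1500 bases, assuming fragments of 200 bases. Of the low values, 81.6% to 86.2% came within 0.15 of a whole number of fragments. Implied fragments use the longest GENCODE M21 transcript and cover counting error only. Chromosome levels use genes with a mean of at least 5 FPKM. Alternatives were other pseudocounts (0.1 and 0.5), filters, scalings and variance models, chromosome level removal, a replicate block, an exact permutation test and each sample left out. Promoters come from RefSeq, which held a window for 5 of the 7 genes. Descriptions used Python 3.11.15, numpy 2.4.6, pandas 2.3.3 and matplotlib 3.10.9.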

Additional observations from a re-analysis of the deposited data

How the results depend on the processing

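Tcf3 passed in 9 of 11 limma settings with all samples, and Id2 in 9 of 10, with log2 fold changes of -0.76 to -0.62 and 1.26 to 1.57. Id2 was not tested at a summed FPKM of at least 70, and Id1 only without a filter. Tcf3 did not pass without a filter (-0.67, limma adjusted p = 0.0542). Tcf4, Tcf12, Id3 and Lyl1 passed in none of 11 limma settings, and Id1 not in its 1. With the replicate block, 0 of all genes passed in limma (2429 at an unadjusted p under 0.05; 1553 passed without the block), and Tcf3 (-0.62, adjusted p = 0.145) and Id2 (1.32, adjusted p = 0.137) did not. All 6 counts of the 3 lists were 0 with the block. The numbers mark no shared source, and the deviations of same-numbered samples correlated at 0.03, 0.05 and -0.09.

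With each sample left out, log2 fold changes ranged from -0.80 to -0.46 for Tcf3, -0.46 to -0.27 for Tcf4, 0.03 to 0.47 for Tcf12, 0.32 to 0.63 for Id1, 1.153 to 1.46 for Id2, -0.42 to -0.22 for Id3 and -0.14 to 0.09 for Lyl1. Calls over all genes ranged from 149 (without preleukemic replicate 4) to 1620. Lower and higher calls ranged from 1 to 11 and 0 to 1 for E-protein targets, 0 to 3 and 1 to 5 for partners and cofactors, and 0 to 2 and 0 to 1 for inducers and turnover. Calls over all genes were 951 at a summed FPKM of at least 70. Target genes called lower were 15 with quantile normalization and 10 with upper quartile scaling, where 1661 and 1697 of all genes were called. Inducers called higher were 0 without a filter, where 1711 of all genes were called. The log2 ratio of Id to E-protein sums differed by 0.12 between groups, and by 0.72 where family means of log2(FPKM + 1) replaced sums, which gives Id2 the weight of Id3. Except where the alternative's construction shows it, the cause was not tested.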

Other observations

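Further genes of the E-protein target list had groups that did not overlap but did not pass the test. They are named here after their values were seen. In all, 16 of the 28 genes were lower in every leukemic sample than in any preleukemic sample, as were 17.1% of all genes tested. Vpreb2, the near copy of Vpreb1, had 16.9, 276 and 25.4 FPKM in the leukemic samples, by replicate, and 278 to 385 FPKM in preleukemic samples (log2 fold change -2.74, limma adjusted p = 0.0712). How reads shared by Vpreb1 and Vpreb2 were counted is not given in the sources used here, so both values are uncertain. Cdkn1a, a cell-cycle inhibitor gene that E proteins can induce, had 4.03, 3.27 and 5.12 FPKM in leukemic and 10.6, 28.1, 11.3 and 7.41 FPKM in preleukemic replicates in order (log2 fold change -1.43, limma adjusted p = 0.051).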
